A study of Homo sapiens with 12 samples.

Results

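The genes described here are 10 immediate early and activator protein 1 (AP-1) genes in HCT116 cells: FOS, FOSB, FOSL1, FOSL2, JUN, JUNB, JUND, EGR1, IER2 and IER3. They were chosen by name, as 10 of the 58233 genes of the deposited count table, and all 10 passed the filter on low counts that left 16657 genes. RNA was sequenced from a parental line and an SDS22-degron line of the human colorectal carcinoma line HCT116. All 4 groups carry a transgene at the AAVS1 locus that encodes rice TIR1 (OsTIR1), an F-box protein, under a tetracycline-inducible promoter. In the SDS22-degron line, the alleles of PPP1R7, the gene of the protein phosphatase 1 subunit SDS22, also encode a carboxy-terminal mAID-mClover fusion and carry neomycin or hygromycin resistance cassettes. That line was expanded from isolated colonies after drug selection, so that a difference between the lines and a difference between colonies cannot be told apart. The 4 groups were untreated parental, Dox/IAA-treated parental, untreated SDS22-degron and Dox/IAA-treated SDS22-degron cells, with 3 libraries each. Treatment was for 48 h with 2 µg/ml doxycycline (Dox), which switches on OsTIR1, and 500 µM of the auxin IAA, which brings OsTIR1 to the mAID tag so that the fusion protein is degraded.

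AP-1 is a dimeric transcription factor. A JUN protein pairs with another JUN protein, with a FOS protein or with a related basic leucine zipper (bZIP) protein, and FOS proteins need such a partner to bind DNA. Many of these genes are transcribed within minutes of serum, growth factors or stress without new protein synthesis, through MAP kinases that act on serum response factor, ternary complex factors and CREB or ATF proteins, and several of their mRNAs are short-lived. In colorectal carcinoma cells FOSL1 is a known target of RAS-ERK signalling. Treated cells were harvested 48 h into the treatment, and no time course was measured.

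The library depth was 12133915 to 14657508 reads counted on genes, and levels are given as CPM, counts scaled to the library total with trimmed mean of M-values (TMM) factors. Of 7 epithelial markers, 7 stood above 1 CPM in all 12 libraries, with a summed level of 2938 to 4470 CPM. The fibroblast genes COL1A2, DCN and LUM, the leukocyte gene CD3E and the endothelial gene CDH5 had 0 counts in all libraries. COL1A1 made up nearly all of the 6-gene fibroblast sum, which was 9.96 to 13.9 CPM in untreated parental, 17.3 to 22.9 in treated parental, 13.8 to 15.8 in untreated SDS22-degron and 21.3 to 31.7 CPM in treated SDS22-degron libraries. The 3 endothelial markers together were at 1.07 to 1.73 CPM in treated SDS22-degron and at most 0.80 CPM in the other libraries, mostly VWF, and the 5 leukocyte markers summed to at most 0.78 CPM. The part of either in the results below was not tested. The mRNA of PPP1R7 was at 43.7 ± 3.8, 45.4 ± 4.1, 44.0 ± 3.0 and 47.9 ± 3.4 CPM (SD, n = 3) in untreated parental, treated parental, untreated SDS22-degron and treated SDS22-degron cells. It was called in no comparison, but since the tag acts on the protein, the transcript does not check the depletion. In bulk RNA, fewer cells that express a gene and less RNA per cell cannot be told apart.

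Promoter sequences were matched for 8 of the 10 genes, in the 250 bases before the RefSeq start on GRCh38.p14. FOSL1 and IER3 were not among the matched genes. The stretches shown are those of EGR1 and FOS, the genes that were called higher after Dox/IAA in parental cells, and of JUND, the most abundant JUN family mRNA. They lie at chr5:138465229-138465478 on the plus strand for EGR1, at chr14:75278578-75278773 on the plus strand for FOS and at chr19:18281623-18281872 on the minus strand for JUND. Each is printed 5′ to 3′ on the strand of its gene. Capitals mark CArG boxes, the binding motif of serum response factor, and TGACG on either strand (read as CGTCA on the other), the core site of the cyclic AMP response element (CRE), to which CREB, ATF and some AP-1 dimers bind.
EGR1: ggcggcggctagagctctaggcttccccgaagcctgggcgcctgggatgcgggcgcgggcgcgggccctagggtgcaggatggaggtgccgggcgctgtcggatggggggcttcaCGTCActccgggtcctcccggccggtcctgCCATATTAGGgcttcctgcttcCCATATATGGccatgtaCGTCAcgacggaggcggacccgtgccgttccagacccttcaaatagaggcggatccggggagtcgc
FOS: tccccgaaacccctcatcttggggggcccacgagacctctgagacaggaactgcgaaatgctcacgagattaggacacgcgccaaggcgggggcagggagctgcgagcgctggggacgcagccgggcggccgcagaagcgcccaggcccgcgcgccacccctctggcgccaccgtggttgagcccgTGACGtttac
JUND: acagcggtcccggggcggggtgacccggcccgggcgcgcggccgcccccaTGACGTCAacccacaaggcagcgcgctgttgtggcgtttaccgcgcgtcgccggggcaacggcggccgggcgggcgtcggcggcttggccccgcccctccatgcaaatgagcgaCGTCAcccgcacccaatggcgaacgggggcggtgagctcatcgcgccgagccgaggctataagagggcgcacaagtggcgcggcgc
EGR1 held 2 matches to the CArG box, CCATATTAGG at 105 to 96 and CCATATATGG at 83 to 74 bases before its start. A CArG box was found on either strand in 1.14% of 27305 promoters of the same length, and in 1 of the 8 matched here. JUND held the palindromic CRE TGACGTCA at 200 to 193 bases before its start, which 1.77% of promoters held and which contains TGACG on both strands. The core site TGACG occurred in 8 of 8 matched genes and in 21.7% of all promoters. The AP-1 site TGANTCA was in 0 of 8 and in 6.60% of all, the EGR site GCGNGGGCG in 1 of 8 (EGR1) and in 8.25% of all, and TATAA in 4 of 8 (FOS, FOSB, JUNB and JUND) and in 19.6% of all. These matches are letters in a window. Sites that differ from the patterns named, or that lie outside the 250 bases, were not searched, so a count of 0 is no sign of their absence. The windows of JUN and FOSL2 lay wholly within the gene spans of the deposited table, and that of FOS reached 54 bases into its gene, so those bases are not shown. The submitters' notes name GRCh38, and the deposited position of 10 of 10 genes overlapped the same gene in RefSeq on GRCh38.p14. The 10 genes also shared a GC content above the 48.11% median of the tested genes, from 53.33% in FOSL2 to 69.67% in JUND, and 4 of them (JUN, JUNB, JUND and IER3) had 1 exon, as 18.7% of tested genes did.

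The libraries of a group differed for these genes more than for most others, and 4 libraries stood apart, 2 of them low and 2 high. In treated SDS22-degron replicate 2, 10 of 10 genes were at their lowest of the group, against 36.1% of all tested genes. Treated parental replicate 2 held the lowest value of its group for 9 of 10 genes (39.6% of all tested genes), with FOSL1 as the exception. Conversely, untreated parental replicate 1 was highest for 8 of 10 genes (33.3% of all) and treated parental replicate 3 likewise for 8 of 10 (28.3% of all). The median deviation of the 10 genes from the group mean on the log2 scale was -0.39 in treated parental replicate 2, -0.25 in treated SDS22-degron replicate 2, 0.33 in untreated parental replicate 1 and 0.29 in treated parental replicate 3, while that of all tested genes was within 0.01 of 0 in all 4. EGR1 varied most, with a pooled within-group SD of 0.78 on the log2 scale against a median of 0.085 for the 3134 genes within 2-fold of its level, of which 99.97% varied less. FOS, JUN, JUNB and JUND varied more than 99.0% to 99.8% of genes at their own level, IER3 more than 98.9%, IER2 more than 95.6% and FOSB more than 92.4%. FOSL2 and FOSL1 were nearest to other genes, with 79.2% and 75.5% varying less.

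**Figure D1:**
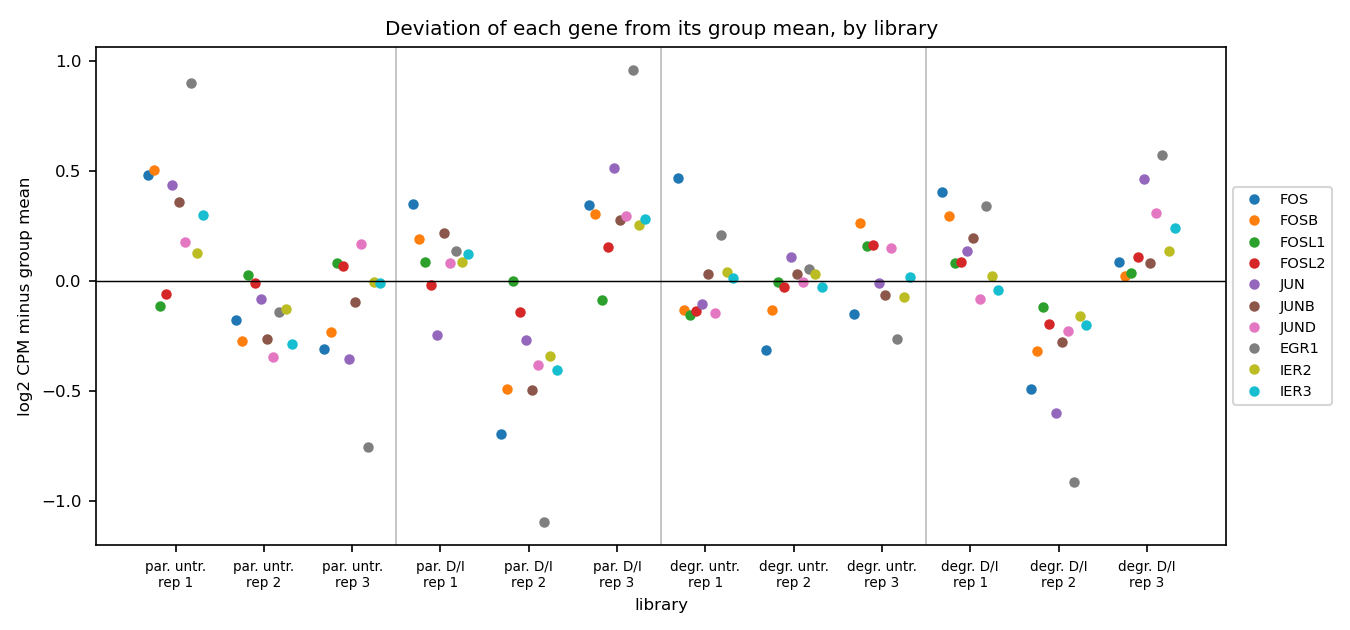
Deviation of each of the 10 genes from the mean of its group, on the log2 CPM scale (y axis), in each of the 12 libraries (x axis; par., parental; degr., SDS22-degron; untr., untreated; D/I, Dox/IAA). All 10 genes lie below 0 in treated SDS22-degron replicate 2, 9 are the lowest of the group in treated parental replicate 2, and EGR1 spans the widest range.

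The question of how Dox/IAA changed these genes was first asked within each line. In SDS22-degron cells 6 of 10 genes were higher after Dox/IAA at an adjusted p under 0.05 (FOS, FOSB, FOSL2, JUN, JUNB and JUND), as were 26.0% of all tested genes. FOSL1 was lower, 1 of 10 genes beside 25.5% of all tested genes. The 3 that did not pass were EGR1, IER2 and IER3. The median log2 fold change of the 10 genes was 0.53, and that of all tested genes 0.0046. The count of higher genes ran from 3 to 7 with 1 library left out, and DESeq2 did not call JUN and JUND. With both treated libraries numbered 2 left out 7 genes were higher (EGR1 in addition) and 1 was lower. Those libraries were picked after the data were seen, and nearly all of the 10 genes were lowest of their group in them. Leaving them out raises the treated levels by construction, so calls gained that way, here and below, are not support. In parental cells, which lack the degron, 2 of 10 genes were higher after the same treatment (FOS and EGR1), beside 15.9% of all tested genes. None (0 of 10) was lower by edgeR's quasi-likelihood test, at an adjusted or an unadjusted p under 0.05, beside 15.7% of all tested genes, and 0 were lower by DESeq2. By DESeq2 0 of 10 genes were higher in parental cells. The parental median was -0.018 for the 10 genes and 0.0015 for all.

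The difference between these effects was tested as an interaction, the log2 effect of Dox/IAA in SDS22-degron cells minus that in parental cells. It was called for FOSL2, which is 1 of 10 genes with a higher value in SDS22-degron cells beside 6.03% of all tested genes, and for FOSL1, which is 1 of 10 with a lower value beside 8.35% of all. For FOSB, JUN and JUND the interaction was 0.71 ± 0.33, 0.64 ± 0.33 and 0.53 ± 0.22 (SE), with an adjusted p of 0.166, 0.209 and 0.121 (edgeR's quasi-likelihood test, Benjamini-Hochberg), so that a difference between the lines was not shown for them in this fit. With the replicate number as a block, the interaction of JUND was called (0.52 ± 0.13, adjusted p = 0.0106). Between the lines, the treated SDS22-degron cells had 3 genes higher (FOSB, JUN and JUND) and 3 lower (FOSL1, FOSL2 and IER3) than treated parental cells, beside 21.8% and 23.1% of all tested genes. Without Dox/IAA, 1 gene was higher (JUN) and 4 were lower (FOSL1, FOSL2, IER2 and IER3) in SDS22-degron cells, beside 13.2% and 15% of all tested genes. The comparisons share groups and are not independent of each other. The study's cut-off for DEGs was an unadjusted p under 0.05 with an absolute log2 fold change above 1. The study took its p from the likelihood ratio test, and here the cut-off was applied to the quasi-likelihood test. Only single genes passed. These were JUN between the treated lines (6.63% of all tested genes), EGR1 in parental cells after Dox/IAA (3.14%) and FOS in SDS22-degron cells after Dox/IAA (7.83%). The cut-off was passed by 0 of 10 genes between the untreated lines (4.14% of all) and 0 of 10 in the interaction (3.60% of all).

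**Figure D2:**
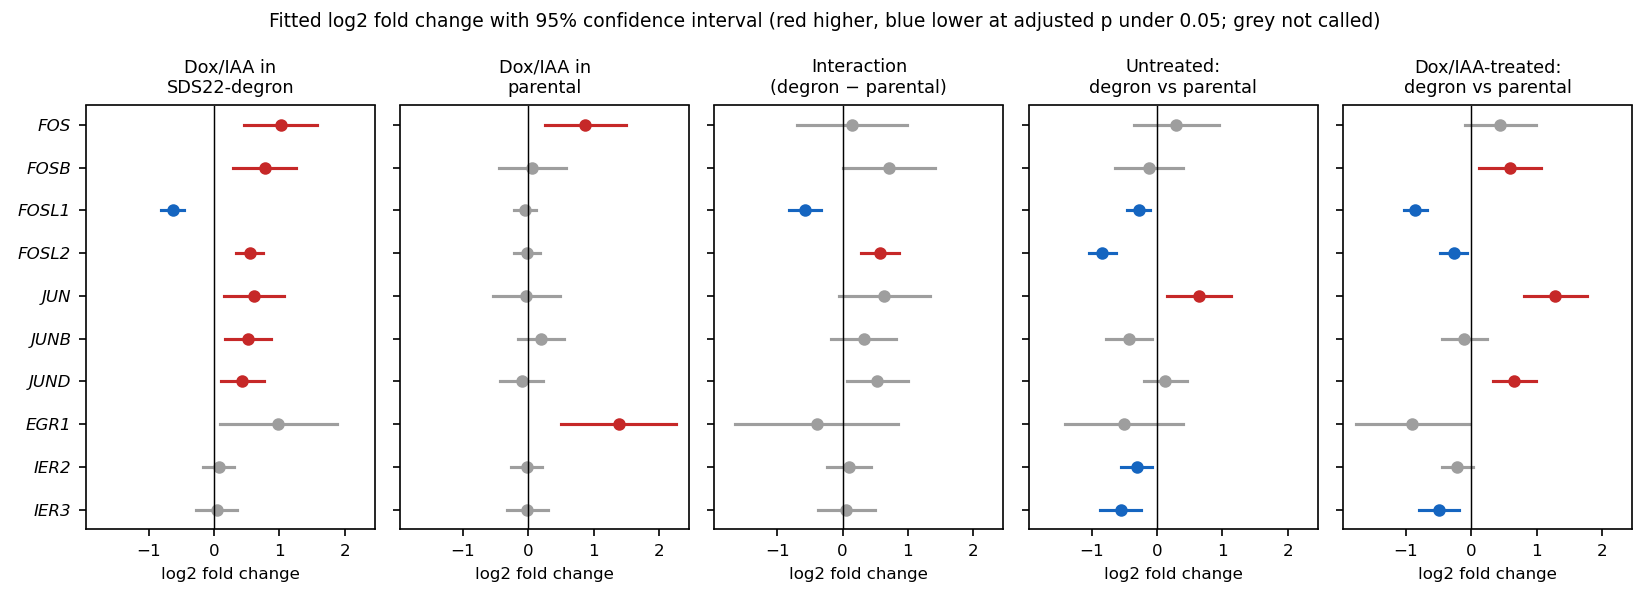
Fitted log2 fold change (x axis) of each gene (y axis) in the 5 comparisons, with its 95% confidence interval as a line, coloured by whether the adjusted p was under 0.05. In SDS22-degron cells after Dox/IAA the intervals of 7 genes lie wholly above 0, of which EGR1 was not called after adjustment, and that of FOSL1 lies below 0, the parental panel shows calls for FOS and EGR1, and the interaction panel shows calls for FOSL1 and FOSL2.

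Among FOS family members, FOSL1 (ENSG00000175592, chr11:65892049-65900573, minus strand, 4 exons), which encodes the FOS-related protein FRA1 that lacks the strong activation domain of FOS, had the clearest fall. Its level was 123, 136 and 141 CPM in untreated parental replicates 1 to 3 and 137, 129 and 122 CPM in treated parental replicates. In SDS22-degron cells it was 98.8, 109.6 and 123 CPM without treatment and 75.4, 65.5 and 73.1 CPM with Dox/IAA. All 3 treated SDS22-degron libraries lay below the 9 others. FOSL1 fell by 0.63 ± 0.084 (SE) on the log2 scale after Dox/IAA in SDS22-degron cells (adjusted p = 5.97e-06, with edgeR's quasi-likelihood F test used throughout). In parental cells the log2 difference was -0.051 ± 0.082 (adjusted p = 0.679), and the interaction was -0.58 ± 0.12 (adjusted p = 0.0028). Between the lines it was lower by a log2 difference of -0.28 ± 0.082 without treatment (adjusted p = 0.0167) and of -0.86 ± 0.084 with treatment (adjusted p = 2.53e-07). The first of these was not called with all 4 libraries numbered 2 left out (-0.26, adjusted p = 0.0788), nor with any one of untreated parental replicates 2 and 3 and untreated SDS22-degron replicates 1 and 2 left out, while the second, the fall within SDS22-degron cells and the interaction were called in all refits tried. The pseudogene FOSL1P1 had 965 counts over the 12 libraries and log2 differences of -0.66 in SDS22-degron cells after Dox/IAA and -0.92 between the treated lines. Reads could be split between FOSL1P1 and FOSL1, so the values of both are uncertain to that extent.

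FOSL2 (ENSG00000075426, chr2:28392448-28417312, plus strand, 7 exons) encodes the related FRA2. It stood at 56.6, 58.6 and 61.8 CPM in untreated and at 57.2, 52.5 and 64.5 CPM in treated parental libraries. The untreated SDS22-degron libraries held 30.0, 32.3 and 37.0 CPM and the treated ones 51.0, 42.0 and 51.8 CPM. FOSL2 was thus lowest in untreated SDS22-degron cells, and the treated libraries of that line lay between these and the parental ones with no overlap on either side. The standing difference between the untreated lines was -0.83 ± 0.099 on the log2 scale (adjusted p = 6.18e-06). Dox/IAA raised FOSL2 by 0.55 ± 0.099 in SDS22-degron cells (adjusted p = 0.000164), the log2 difference in parental cells was -0.022 ± 0.096 (adjusted p = 0.889), and the interaction was 0.57 ± 0.14 (adjusted p = 0.00963). The remaining difference between the treated lines, -0.27 ± 0.096 (adjusted p = 0.0306), was not called without treated SDS22-degron replicate 2 (-0.18, adjusted p = 0.166), without treated parental replicate 3 (-0.19, adjusted p = 0.164) or without both treated libraries numbered 2 (-0.24, adjusted p = 0.0603). Nor was it called with upper quartile normalization or with all 4 libraries numbered 2 left out. The other 3 differences called for FOSL2 were called in all refits tried. FOSL1 and FOSL2 thus had called interactions of opposite sign.

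FOS (ENSG00000170345, chr14:75278774-75282230, plus strand, 3 exons) encodes c-FOS, the founding member of the family and a standard marker of acute induction. It was low throughout, with 45 to 198 counts per library. Untreated parental libraries held 6.42, 4.07 and 3.71 CPM, and treated parental libraries 10.4, 5.06 and 10.4 CPM. In SDS22-degron cells the level was 7.80, 4.54 and 5.09 CPM without and 15.1, 8.13 and 12.1 CPM with Dox/IAA. The treated and untreated libraries overlapped in parental cells and did not overlap in SDS22-degron cells. FOS rose by 1.02 ± 0.27 (SE) on the log2 scale in SDS22-degron cells (adjusted p = 0.00376) and by 0.87 ± 0.29 in parental cells (adjusted p = 0.0297), and the interaction was 0.15 ± 0.40 with a 95% confidence interval of -0.70 to 0.99 (adjusted p = 0.848). The call in SDS22-degron cells was made in all refits tried. In parental cells it was not made by DESeq2 (adjusted p = 0.0731) or with any one of untreated replicates 2 and 3 and treated replicates 1 and 3 left out. Between the treated lines the log2 difference was 0.45 ± 0.26 (adjusted p = 0.167), and with the replicate number as a block it was 0.45 ± 0.15 (adjusted p = 0.0175). Without treated SDS22-degron replicate 2 it was 0.66 ± 0.26 (adjusted p = 0.0487).

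FOSB (ENSG00000125740, chr19:45467995-45475179, plus strand, 3 exons), whose product can replace c-FOS in AP-1, was the least abundant of the 10 per length and had 39 to 107 counts per library. It was at 5.91, 3.44 and 3.54 CPM in untreated and 4.95, 3.08 and 5.35 CPM in treated parental libraries. In SDS22-degron cells it was at 3.57, 3.58 and 4.71 CPM without and 8.16, 5.34 and 6.75 CPM with Dox/IAA. Thus the treated SDS22-degron libraries lay above the untreated ones of that line but overlapped the parental ones. FOSB rose by 0.78 ± 0.23 after Dox/IAA in SDS22-degron cells (adjusted p = 0.00813), a call that was lost without treated replicate 1 of that line (adjusted p = 0.0544). The log2 difference in parental cells was 0.062 ± 0.24 (adjusted p = 0.877). Treated SDS22-degron cells had more FOSB than treated parental cells by 0.60 ± 0.23 (adjusted p = 0.0387). This call was lost without treated parental replicate 2, treated SDS22-degron replicate 1 or replicate 3, and without both treated libraries numbered 2 (0.54, adjusted p = 0.0693). It was also lost with full-quantile normalization and with all 4 libraries numbered 2 left out. The untreated lines differed by -0.12 ± 0.25 (adjusted p = 0.765). FOSB lies within the span of ERCC1 on the opposite strand. The library kit keeps the strand, but the strand setting of the counting was not given in the sources used here, and ERCC1 had 10478 counts over the 12 libraries against 751 of FOSB. The ERCC1 difference was -0.21 ± 0.088 on the log2 scale in SDS22-degron cells after Dox/IAA (adjusted p = 0.057) and -0.50 ± 0.087 between the treated lines (adjusted p = 0.000146), opposite in sign to FOSB.

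JUN (ENSG00000177606, chr1:58780788-58784327, minus strand, 1 exon) encodes c-JUN, a substrate of the JNK kinases that also acts on its own gene. Its level was 27.1, 18.9 and 15.7 CPM in untreated and 16.4, 16.2 and 27.8 CPM in treated parental libraries. In SDS22-degron cells it was 29.8, 34.6 and 31.9 CPM without and 51.6, 31.0 and 64.7 CPM with Dox/IAA. All 6 SDS22-degron libraries lay above the 6 parental ones, and in the treated state replicate 2 fell within the range of the untreated libraries. JUN had the largest difference of the 10 genes between the treated lines, 1.29 ± 0.23 (SE) on the log2 scale (adjusted p = 0.000181), and it was called in all refits tried, with a range of 1.04 to 1.59. Between the untreated lines the difference was 0.65 ± 0.24 (adjusted p = 0.0476). That call was not made by DESeq2 (adjusted p = 0.137), after a GC correction, with all 4 libraries numbered 2 left out (adjusted p = 0.0878), or with any 1 of 5 libraries left out, namely untreated parental replicates 2 and 3 and untreated SDS22-degron replicates 1, 2 and 3. Dox/IAA raised JUN by 0.61 ± 0.22 in SDS22-degron cells (adjusted p = 0.0269), a call that DESeq2 did not make (adjusted p = 0.102) and that was lost without treated or untreated replicate 1 or 3 of that line. The difference in parental cells was -0.030 ± 0.25 (adjusted p = 0.942). The interaction of JUN, given above, was called without treated SDS22-degron replicate 2 (0.88 ± 0.28, adjusted p = 0.0463).

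JUNB (ENSG00000171223, chr19:12791496-12793315, plus strand, 1 exon) encodes a JUN protein that activates transcription less than c-JUN at many sites and can restrain it. Untreated parental libraries held 119.5, 77.5 and 87.0 CPM and treated ones 123, 74.7 and 128 CPM. In SDS22-degron cells JUNB was at 72.0, 71.9 and 67.3 CPM without and at 115, 82.4 and 106 CPM with Dox/IAA. The 3 untreated SDS22-degron libraries were the lowest of all 12. Dox/IAA raised JUNB by 0.52 ± 0.17 in SDS22-degron cells (adjusted p = 0.0158), which was not called without treated replicate 1, treated replicate 3 or untreated replicate 3. In parental cells the difference was 0.20 ± 0.17 (adjusted p = 0.405), and it was called without both treated libraries numbered 2 (0.40, adjusted p = 0.0149). The untreated lines differed by -0.43 ± 0.17 (adjusted p = 0.0699), by -0.40 ± 0.12 with the replicate number as a block (adjusted p = 0.0129) and by -0.56 with all 4 libraries numbered 2 left out (adjusted p = 0.00173). That difference was called in 9 of 26 refits and not in the other 17. The 9 included the likelihood ratio test, no filter, the compared groups alone and the fit without untreated parental replicate 2, the lowest of its group. They also included fits without treated parental replicate 2 (adjusted p = 0.0143) and without both treated libraries numbered 2 (adjusted p = 0.00617). Those treated libraries are not part of this comparison. The treated lines differed by -0.10 ± 0.17 with a 95% confidence interval of -0.45 to 0.25 (adjusted p = 0.65). JUNB lies within the span of HOOK2 on the opposite strand, which had 8937 counts against 14438 of JUNB. HOOK2 changed by 0.49 ± 0.11 in SDS22-degron cells after Dox/IAA (adjusted p = 0.0012), in the direction of JUNB, and the part of shared reads in this was not tested.

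JUND (ENSG00000130522, chr19:18279760-18281622, minus strand, 1 exon) encodes the JUN protein that is expressed most steadily in resting cells. It was at 217, 150.4 and 215 CPM in untreated and 188, 136 and 218 CPM in treated parental libraries. The SDS22-degron libraries held 191, 211 and 234 CPM without and 267, 242 and 349.7 CPM with Dox/IAA. The 3 treated SDS22-degron libraries were the highest of all 12. JUND was higher in treated SDS22-degron than in treated parental cells by 0.66 ± 0.16 (SE) on the log2 scale (adjusted p = 0.0022), in all refits tried, while the untreated lines differed by 0.13 ± 0.16 (adjusted p = 0.584). Dox/IAA raised JUND by 0.43 ± 0.16 in SDS22-degron cells (adjusted p = 0.0287), a call that DESeq2 did not make (adjusted p = 0.0864) and that was lost without treated replicate 3, untreated replicate 1 or untreated replicate 2. The difference in parental cells was -0.10 ± 0.16 (adjusted p = 0.662). The interaction of JUND, given above, was called with all 4 libraries numbered 2 left out (0.64, adjusted p = 0.0197), without untreated parental replicate 2 (0.67, adjusted p = 0.0302) and without treated parental replicate 3 (0.69, adjusted p = 0.0479).

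**Figure D3:**
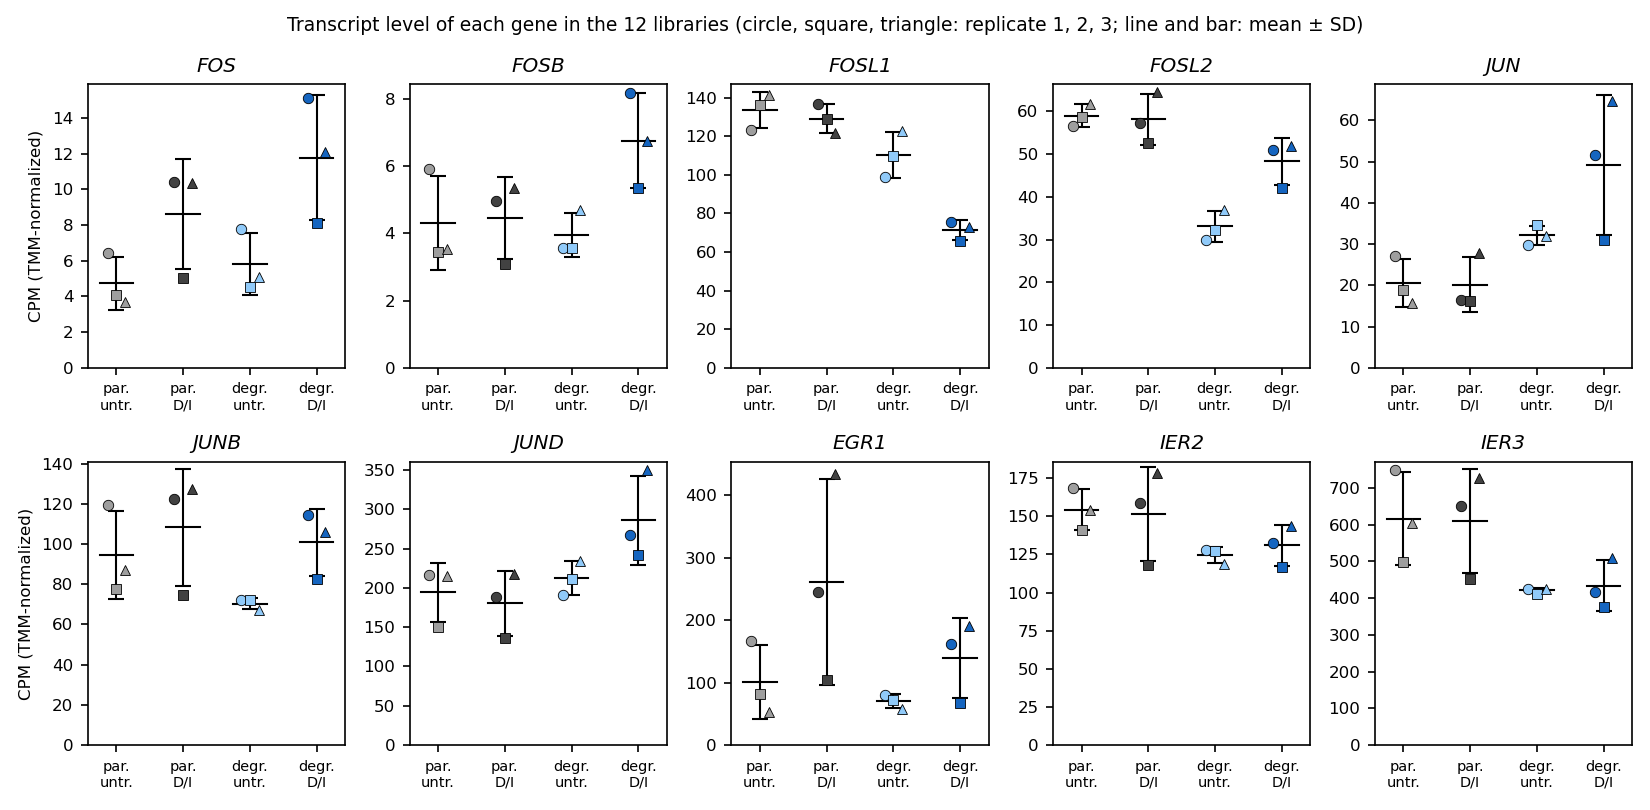
Level of each of the 10 genes in TMM-normalized CPM (y axis, from 0) in the 4 groups (x axis, 3 libraries each; par., parental; degr., SDS22-degron; untr., untreated; D/I, Dox/IAA). Symbols are single libraries and lines with bars are the mean ± SD. FOSL1 is lowest in treated SDS22-degron cells at 65.5 to 75.4 CPM, JUND is highest there at 242 to 349.7 CPM, and EGR1 runs from 104 to 434 CPM within the treated parental group.

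EGR1 (ENSG00000120738, chr5:138465490-138469315, plus strand, 2 exons) encodes a zinc finger factor that is induced through serum response factor and ERK signalling, and it is the gene with the CArG boxes printed above. Its level was 167, 81.0 and 53.0 CPM in untreated and 245, 104 and 434 CPM in treated parental libraries. In SDS22-degron cells it was 80.8, 72.6 and 58.2 CPM without and 162, 67.8 and 189.7 CPM with Dox/IAA. Treated and untreated libraries overlapped in both lines. EGR1 rose by 1.38 ± 0.42 (SE) on the log2 scale in parental cells (adjusted p = 0.0174), and the differences between libraries of the same number were 0.55, 0.36 and 3.03. This call was not made by DESeq2 (adjusted p = 0.0574), nor without treated parental replicate 3 or untreated parental replicate 2 or 3. In SDS22-degron cells the difference was 0.98 ± 0.43 (adjusted p = 0.0606). It was called in 12 of 26 refits and not in the other 14. The 12 included the likelihood ratio test (the test of the study), no filter and the compared groups alone. They also included all refits without treated SDS22-degron replicate 2, the lowest of its group, and some that left out a parental library. Leaving out that replicate raises the treated level by construction, so those calls are not support. Without both treated libraries numbered 2 the difference was 1.32 (adjusted p = 0.00127). The interaction was -0.40 ± 0.59 with a 95% confidence interval of -1.64 to 0.85 (adjusted p = 0.71), which leaves room for a larger effect in either line. The treated lines differed by -0.90 ± 0.41 (adjusted p = 0.0831), by -0.88 ± 0.33 with the replicate number as a block (adjusted p = 0.0338) and by -0.95 without both treated libraries numbered 2 (adjusted p = 0.0266). The untreated lines differed by -0.50 ± 0.43 (adjusted p = 0.414).

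IER2 (ENSG00000160888, chr19:13150415-13154908, plus strand, 2 exons) encodes a nuclear protein of the immediate early class. It was at 168, 141 and 154 CPM in untreated and 159, 118 and 178 CPM in treated parental libraries. The SDS22-degron line held 128, 128 and 119 CPM without and 132, 117 and 144 CPM with Dox/IAA. The untreated groups did not overlap and the treated groups did. IER2 was lower in untreated SDS22-degron than in untreated parental cells by a log2 difference of -0.31 ± 0.11 (adjusted p = 0.0489), close to the threshold, and this call was lost under several normalizations and with several single libraries left out. The treated lines differed by -0.21 ± 0.11 (adjusted p = 0.136), and by -0.29 without both treated libraries numbered 2 (adjusted p = 0.016). After Dox/IAA the difference was -0.026 ± 0.11 in parental (adjusted p = 0.89) and 0.070 ± 0.11 in SDS22-degron cells (adjusted p = 0.634).

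IER3 (ENSG00000137331, chr6:30743199-30744554, minus strand, 1 exon) encodes an ERK substrate linked to cell survival and was the most abundant of the 10. Its level was 748, 498 and 604 CPM in untreated and 652, 453 and 727 CPM in treated parental libraries. The SDS22-degron libraries held 425, 413 and 426 CPM without and 418, 375 and 509.7 CPM with Dox/IAA. All untreated SDS22-degron libraries lay below the parental ones. IER3 was lower in SDS22-degron cells by a log2 difference of -0.55 ± 0.15 without treatment (adjusted p = 0.00942) and of -0.49 ± 0.15 with treatment (adjusted p = 0.0115). The first call was lost without untreated parental replicate 1 and the second without treated parental replicate 3 or treated SDS22-degron replicate 2. The differences after Dox/IAA were -0.015 ± 0.15 in parental (adjusted p = 0.953) and 0.044 ± 0.15 in SDS22-degron cells (adjusted p = 0.827). Antisense transcripts that overlap IER2 and IER3 had 210 and 55 counts against 21709 and 80189 of these genes.

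To compare levels between genes, CPM values were divided by gene length in kilobases (RPKM). In untreated parental cells the order was IER3 at 455 ± 93 RPKM (SD, n = 3), JUND at 104 ± 20, FOSL1 at 70.9 ± 4.9, JUNB at 52.0 ± 12.1, IER2 at 50.3 ± 4.4, EGR1 at 31.9 ± 18.9, FOSL2 at 8.24 ± 0.37, JUN at 5.81 ± 1.67, FOS at 1.46 ± 0.45 and FOSB at 0.774 ± 0.252 RPKM. FOSL1 made up 87.1% ± 1.2 of the summed RPKM of the FOS family in untreated parental, 85.5% ± 2.4 in treated parental, 89.1% ± 1.1 in untreated SDS22-degron and 76.6% ± 1.9 in treated SDS22-degron cells. FOSL1 was thus the major FOS family mRNA in every group. In treated SDS22-degron cells the shares of the others were 13.6% ± 0.50 for FOSL2, 7.27% ± 1.53 for FOS and 2.44% ± 0.29 for FOSB, against 7.04% ± 0.067, 2.79% ± 1.08 and 1.08% ± 0.086 in untreated cells of that line. The summed RPKM of the FOS family was 81.4 ± 4.6 in untreated parental, 80.0 ± 4.0 in treated parental, 65.6 ± 6.6 in untreated SDS22-degron and 49.4 ± 4.8 in treated SDS22-degron cells. The JUN family summed to 162 ± 31, 162 ± 39, 162 ± 11 and 223 ± 40 RPKM in the same order. JUND made up 64.3% ± 4.0, 60.0% ± 1.6, 70.4% ± 2.6 and 68.8% ± 3.5 of this sum, JUNB 32.1% ± 3.2, 36.5% ± 2.3, 24.0% ± 2.4 and 25.1% ± 3.3, and JUN 3.61% ± 0.84, 3.52% ± 0.73, 5.61% ± 0.39 and 6.10% ± 1.16. These are shares of mRNA, described without a test, and say nothing of the proteins. They rest on the deposited lengths, which were 1887 bases for FOSL1, 3238 for FOS, 5553 for FOSB and 7157 for FOSL2. Whether the transcripts expressed here have these lengths was not tested. In CPM, without length, treated SDS22-degron cells held 71.3 of FOSL1, 48.3 of FOSL2, 11.8 of FOS and 6.75 of FOSB.

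Genes whose profile was most like that of each of the 10 were found as those with the smallest root mean square (RMS) difference of centred log2 CPM over the 12 libraries, among 10843 genes with a mean of at least 10 CPM. FOSL1 was nearest to HMGA1P8 and SLC2A4RG (RMS difference 0.078 and 0.084), and FOSL2 to SLC39A4 and SEMA4B (0.121 and 0.123). HMGA1P8 is a pseudogene whose reads can be shared with HMGA1, so its value is uncertain. FOS was nearest to ARSD and ATP2C2 (0.300 and 0.306), JUN to DUSP8 and PGM2L1 (0.281 and 0.305), JUNB to MYOM3 and PTP4A3 (0.159 and 0.178), and JUND to DHCR7 and ITPR1 (0.124 and 0.133). PPP1R15A was among the nearest to FOSB (0.192). For IER2 these were GPBP1L1 and PTPRK (0.0955 and 0.0957), for IER3 SLC45A1 and EPHA2 (0.133 and 0.140), and for EGR1 NYAP1 and C6orf223 (0.602 and 0.614). The genes nearest to EGR1 were far less close than those of FOSL1. The libraries share depth and treatment, and likeness of profile is a description.

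Other bZIP genes were followed in a list of 31, of which 29 were tested. It held ATF, CREB, BATF, MAF, CNC and CEBP genes, CREM, JDP2 and DDIT3. Whether each of them pairs with a FOS or JUN protein was not tested. In SDS22-degron cells after Dox/IAA 11 were higher and 4 lower (26.0% and 25.5% of all tested genes), with a median log2 fold change of 0.20. In parental cells 6 were higher and 7 lower (15.9% and 15.7% of all). Between the treated lines 12 were higher and 3 lower (21.8% and 23.1% of all), and between the untreated lines 5 and 5 (13.2% and 15% of all). ATF3, a stress-inducible bZIP factor that is itself an immediate early gene, was at 25.4 ± 16.1 CPM (SD, n = 3) in untreated parental, 13.8 ± 3.6 in treated parental, 40.2 ± 4.1 in untreated SDS22-degron and 50.6 ± 11.2 CPM in treated SDS22-degron cells. It was higher between the treated lines by 1.87 ± 0.29 (SE) on the log2 scale (adjusted p = 3.53e-05), and its interaction was 1.20 ± 0.39 (adjusted p = 0.048). After Dox/IAA, ATF3 was lower in parental cells, by -0.87 ± 0.30 (adjusted p = 0.033). It was not called in SDS22-degron cells, where the difference was 0.33 ± 0.26 (adjusted p = 0.296). The untreated lines differed by 0.67 ± 0.27 (adjusted p = 0.073). ATF5 and ATF6B, factors of the stress response and of the endoplasmic reticulum, were lower between the treated lines by log2 differences of -0.77 ± 0.10 and -0.73 ± 0.10, and between the untreated lines by -0.51 ± 0.10 and -0.64 ± 0.099. After Dox/IAA in SDS22-degron cells, BATF2 rose by 1.89 ± 0.24 from 0.941 to 3.50 CPM, NFE2L1, an activator of proteasome genes, rose by 0.46 ± 0.061, and NFE2L3 fell by 0.51 ± 0.062. In parental cells NFE2L1 also rose, by 0.21 ± 0.061 (adjusted p = 0.0131), and NFE2L3 also fell, by 0.25 ± 0.064 (adjusted p = 0.00633).

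Other immediate early genes formed a list of 44, of which 43 were tested. After Dox/IAA 20 were higher and 10 lower in SDS22-degron cells (26.0% and 25.5% of all tested genes), and 10 were higher and 7 lower in parental cells (15.9% and 15.7%). Between the treated lines 13 were higher and 7 lower (21.8% and 23.1%), and between the untreated lines 9 and 13 (13.2% and 15%). PLK2, a polo-like kinase induced by serum and stress, was at 149 ± 8.2 CPM in untreated parental, 61.9 ± 10.3 in treated parental, 383 ± 16 in untreated SDS22-degron and 202 ± 5.4 CPM in treated SDS22-degron cells. It fell with Dox/IAA in both lines, by 1.27 ± 0.089 in parental and by 0.92 ± 0.084 in SDS22-degron cells on the log2 scale, and was higher in SDS22-degron cells in both states. TIPARP, an ADP-ribosyltransferase and aryl hydrocarbon receptor target, rose in both lines, by 0.59 ± 0.067 in parental and by 1.07 ± 0.068 in SDS22-degron cells, with an interaction of 0.49 ± 0.095 (adjusted p = 0.00211). KLF10, a zinc finger factor induced by TGF-beta, was lower in SDS22-degron cells by -1.11 ± 0.072 when treated and -0.70 ± 0.071 when untreated. ZFP36L1 and ZFP36L2 encode proteins that bring AU-rich mRNAs to decay. ZFP36L1 was lower in SDS22-degron cells by -0.95 ± 0.086 when untreated and -0.63 ± 0.087 when treated, and fell after Dox/IAA by 0.56 ± 0.085 in parental and by 0.24 ± 0.087 in SDS22-degron cells. ZFP36L2 fell after Dox/IAA by 1.00 ± 0.11 in SDS22-degron and by 0.83 ± 0.11 in parental cells.

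Upstream of these genes, 33 of 35 listed kinases and serum response factors were tested. In SDS22-degron cells after Dox/IAA 13 were higher and 2 lower, in parental cells 8 and 1, between the treated lines 6 and 5, and between the untreated lines 4 and 8. The shares of all tested genes that were higher and lower were 26.0% and 25.5%, 15.9% and 15.7%, 21.8% and 23.1%, and 13.2% and 15% in the same order. RPS6KA2, a kinase of the RSK family downstream of ERK, was at 13.3 ± 1.5 CPM in untreated parental, 23.9 ± 6.5 in treated parental, 30.1 ± 0.73 in untreated SDS22-degron and 73.3 ± 7.7 CPM in treated SDS22-degron cells. It rose with Dox/IAA by 1.28 ± 0.13 on the log2 scale in SDS22-degron and by 0.85 ± 0.16 in parental cells (interaction adjusted p = 0.168). MAPK3, the ERK1 kinase, and MAPK13, a p38 kinase, rose in both lines, by 0.51 ± 0.069 and 0.60 ± 0.067 in SDS22-degron and by 0.36 ± 0.067 and 0.38 ± 0.066 in parental cells. MAP3K1, which acts upstream of JNK, was higher between the treated lines by 0.63 ± 0.080, with an interaction of 0.41 ± 0.11 (adjusted p = 0.0214). ELK3, a ternary complex factor that partners serum response factor, was lower in SDS22-degron cells in both states, by -0.96 ± 0.070 when treated and -0.84 ± 0.070 when untreated.

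Downstream, 37 genes known as AP-1 targets were listed, of which 21 passed the filter. Between the treated lines 5 were higher and 10 lower (21.8% and 23.1% of all tested genes), and between the untreated lines 2 and 11 (13.2% and 15%). After Dox/IAA 6 were higher and 7 lower in SDS22-degron cells (26.0% and 25.5%), and 4 were higher and 8 lower in parental cells (15.9% and 15.7%). EREG, the EGF receptor ligand epiregulin, was at 1374 ± 213 CPM in untreated parental, 1042 ± 150 in treated parental, 752 ± 20 in untreated SDS22-degron and 397 ± 27 CPM in treated SDS22-degron cells. It fell after Dox/IAA in both lines, and its interaction was -0.53 ± 0.15 (adjusted p = 0.0221). HMGA1, a chromatin architectural protein, fell by 0.85 ± 0.077 on the log2 scale in SDS22-degron and by 0.25 ± 0.076 in parental cells, with an interaction of -0.60 ± 0.11 (adjusted p = 0.00113). CCND1, the gene of cyclin D1, was higher in SDS22-degron cells by 0.77 ± 0.078 when treated and by 0.71 ± 0.078 when untreated, and was called after Dox/IAA in neither line. TIMP1, an inhibitor of matrix metalloproteinases, rose with Dox/IAA in both lines, by 0.76 ± 0.074 in SDS22-degron and by 0.54 ± 0.075 in parental cells. The listed targets therefore moved in both directions.

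In the interaction, the counts were 5 higher and 1 lower of 29 other bZIP genes, 5 and 2 of 43 other immediate early genes, 4 and 1 of 33 upstream genes, and 5 and 2 of 21 targets, beside 6.03% and 8.35% of all tested genes. Over 25 refits the higher counts ran from 1 to 11, 3 to 13, 2 to 5 and 4 to 6 in the same order. The lower counts ran from 0 to 2, 2 to 3, 0 to 1 and 1 to 2. The median log2 interaction was 0.21, 0.090, 0.028 and 0.060 in these lists, 0.24 in the 10 genes and -0.0019 over all tested genes. Between the treated lines the median log2 fold change of the 10 genes was -0.16 beside -0.0056 for all, and between the untreated lines it was -0.29 beside 0.0034 for all.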

How the data were processed

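RNA from 3 samples of each of 4 conditions, which the labels call biological replicates, was sequenced as poly-A selected, stranded libraries. The table the authors deposited holds raw, unnormalized counts for each gene, with the position, length, exon number and GC percent of each gene. The submitters' processing notes list cutadapt 1.15, Bowtie2 2.3.3.1, STAR 2.5.2b, SAMtools 1.5, featureCounts 1.5.3 and GRCh38, with no order of use. The strand setting of the counting and the annotation release were not given in the sources used here. Multi-mapped reads could not be reassigned.

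All 12 columns were mapped to samples by name, with 0 left over. Of 58233 genes, 16657 passed filterByExpr of edgeR 4.0.16 (R 4.3.3), run on the groups with its minimum count of 10. A model of the 4 group means was fitted to the TMM-scaled counts. Comparisons used the quasi-likelihood F test, with Benjamini-Hochberg adjustment over all tested genes and a call at an adjusted p under 0.05. Over all tested genes, log2 fold changes had a median standard error of 0.11, or 0.156 for the interaction, and the common biological coefficient of variation was 7.48%. The chi-square per degree of freedom between replicates was 2.06 to 9.02, beyond counting noise. RPKM used the deposited length. The procedure was tested on simulated data. Promoter sequences are from RefSeq (GRCh38.p14).

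The 10 genes, the lists and the tests were chosen with earlier results of these data known. The lists of other bZIP genes, other immediate early genes, upstream genes and targets were written from general knowledge. From each, the 3 genes with the smallest unadjusted p between the treated lines and the 3 with the smallest in SDS22-degron cells after Dox/IAA are named. For each of the 10 genes, the 2 genes nearest in profile are named too. Of the genes these rules name, 2 are not reported here.

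The alternatives comprised 26 refits and the study's cut-off, which was applied to the p of the quasi-likelihood test. The refits were the likelihood ratio test, DESeq2 1.42.0, other normalizations (library size, upper quartile, DESeq2 size factors, full quantile, GC correction), no filter, a stricter filter (1 CPM), the compared groups alone, a replicate block with and without GC correction, and each library left out in turn. The last 2 of the 26 were chosen after seeing the data and left out the treated or all libraries numbered 2. Nearly all of the genes described were lowest of their group in the treated ones, so calls gained in these refits are not support. Replicate numbers come from the labels. Deviations of same-numbered libraries from their group means correlated across genes above 0.1 in every pair between the untreated lines (0.162 to 0.374), between the treated lines (0.143 to 0.314) and within the parental line (0.265 to 0.576), and the blocked value is given there where it changes a call. Within the SDS22-degron line the correlations were 0.0967, -0.056 and 0.249.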

Additional observations from a re-analysis of the deposited data

Results flagged for a closer look

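The effect of Dox/IAA differed between the SDS22-degron and parental lines for 2 of the 10 genes by the test of the difference itself, the interaction term of edgeR's quasi-likelihood test. Of all tested genes, 6.03% had a higher and 8.35% a lower interaction by the same test. For FOSL1 the log2 effect in SDS22-degron minus parental cells was -0.58 ± 0.12 (SE, adjusted p = 0.0028). For FOSL2 it was 0.57 ± 0.14 (adjusted p = 0.00963). Both differences were called in all refits tried, with ranges of -0.65 to -0.50 for FOSL1 and 0.50 to 0.66 for FOSL2. With both treated libraries numbered 2 left out, they were -0.52 (adjusted p = 0.0131) and 0.59 (adjusted p = 0.00662). The groups of 3 libraries were too small for a formal test for single outlying samples, and each library was left out in turn.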

How the results depend on the processing

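The 26 refits, with the 2 chosen after seeing the data among them, gave 1290 refits of 1 gene in 1 comparison. Of these, 1181 changed no call, 62 lost a call, 47 gained one and 0 reversed a called value. Counts of called genes moved by more than 1.5 times as follows, and the cause was not tested. With no filter, 5 of the 10 genes were lower between the treated lines, and 3 had a higher and 2 a lower interaction. DESeq2 called 0 genes higher between the untreated lines and 0 in parental cells after Dox/IAA, and with GC correction 0 were higher between the untreated lines. With all 4 libraries numbered 2 left out, 0 were higher between the untreated lines, 2 had a higher interaction, and 1577 of all tested genes had a called interaction, which was 1589 without the 2 treated libraries. Under the study's cut-off, applied to quasi-likelihood p values, 1 of the 10 was higher and 0 lower between the treated lines. Between the untreated lines these counts were 0 and 0. After Dox/IAA 1 was higher in parental and 1 in SDS22-degron cells, where 0 were lower. In the interaction 0 and 0 were called. All tested genes past the cut-off numbered 1105, 689, 523, 1305 and 600 in the same order of comparisons.

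With 1 library left out, 2 to 4 genes were higher and 1 to 5 lower between the treated lines, 0 to 1 and 2 to 5 between the untreated lines, 0 to 3 were higher in parental and 3 to 7 in SDS22-degron cells after Dox/IAA, where 1 was lower throughout, and 1 to 2 had a higher interaction. All tested genes with a called interaction numbered 1681 to 2957. With the replicate number as a block, alone or with GC correction, 2 of the 10 had a higher interaction, JUND being the one added (0.52 ± 0.13 (SE), adjusted p = 0.0106 by edgeR). Within SDS22-degron cells, where deviations of same-numbered libraries correlated at 0.0967, -0.056 and 0.249, EGR1 was called after Dox/IAA with the block (0.85, adjusted p = 0.0437). Beside the calls named in the report, the block changed no other. After Dox/IAA in SDS22-degron cells the refits called 10 to 16 other bZIP genes, 15 to 22 other immediate early genes, 9 to 17 upstream genes and 5 to 8 targets higher. FOS and FOSB, at 39 to 198 counts per library, and EGR1, with its spread between libraries, had the widest intervals.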
